A study of Mus musculus with 10 samples.

Results

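Collagen processing and folding in the aging aorta was followed through 10 genes taken by symbol from a table of 55453 gene symbols, namely *Serpinh1*, *P4ha1*, *P4ha2*, *P4hb*, *Plod1*, *Plod2*, *Plod3*, *Pcolce*, *Bmp1* and *Adamts2*. All 10 were found in the table, and all 10 had enough counts to be tested. The libraries came from the aortae of 10 male C57BL/6 mice, 5 young mice aged 14.5 weeks and 5 old mice aged 92.5 weeks by the labels, with no treatment and no altered allele named for either age. The mice of both ages were killed at the same time, the fat around the vessel was removed, and mRNA of the remaining wall was sequenced with 1 library per aorta. The labels do not name the region of the aorta, and the whole wall was homogenized.

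Collagen chains are folded and modified inside the endoplasmic reticulum (ER) before they leave the cell. Prolyl 4-hydroxylase, built from a catalytic alpha subunit (*P4ha1*, *P4ha2*, *P4ha3*) and protein disulfide isomerase (*P4hb*) as its beta subunit, hydroxylates prolines so that the triple helix is stable at body temperature, and the lysyl hydroxylases (*Plod1*, *Plod2*, *Plod3*) prepare lysines for sugar addition and cross-linking. The product of *Serpinh1* is a chaperone that binds the folded triple helix and escorts procollagen to the Golgi. Outside the cell, *Adamts2* cuts off the amino-terminal propeptide and *Bmp1* the carboxy-terminal one, and *Pcolce* enhances the cut made by *Bmp1*. In the arterial wall, smooth muscle cells and adventitial fibroblasts make most of the type I and III collagen that gives the vessel its tensile strength.

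In aged aortae, *Serpinh1* and *Adamts2* fell, while no collagen processing gene rose. In the edgeR fit, *Serpinh1* fell by 31.4%, and *Adamts2* fell by 27.7%. The other 8 genes, which include *P4ha1*, *P4ha2* and *P4hb* of prolyl 4-hydroxylase and all 3 lysyl hydroxylases, did not pass the test, with log2 fold changes from -0.56 for *P4ha1* to -0.02 for *Plod3*. Of the 14614 genes tested, 4.99% were called lower and 6.48% higher, against 2 of 10 and 0 of 10 here. At an unadjusted p below 0.05, 5 of the 10 were lower and 0 higher, against 12.6% and 14.1% of all genes tested. DESeq2 called 3 of the 10 lower and limma-voom 2, with 0 higher in either. Of all genes, DESeq2 called 3.84% of 28011 lower and limma-voom 5.07% of 14614. The 28011 are all genes with a count, weakly expressed ones included, so that the DESeq2 share is not like the others. When single mice were left out, edgeR called 4 of the 10 without young replicate 1, 3 without old replicate 1, and 1, *Serpinh1*, without young replicates 2, 4 or 5 or old replicate 5. The median log2 fold change was -0.26 over the 10 genes and 0.0034 over all genes tested. All 10 values lay below 0, as did those of 7196 of the 14614 genes tested. The 10 genes were measured in the same mice, so that their signs are not independent. The log2 fold change of *Plod3* turned to 0.013 with upper-quartile scaling, to 0.010 with library size alone and to 0.00011 without old replicate 2. A gene is called here at an adjusted p below 0.05 in edgeR's quasi-likelihood F test, fold changes compare old with young on the log2 scale and carry the fit's standard error (SE), and levels are "normalized counts", scaled between libraries by DESeq2 size factors (mean ± SD, n = 5). In whole tissue, fewer cells of a type and less RNA per cell cannot be told apart.

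The 250 bases before the gene start annotated in RefSeq are shown for *Serpinh1* and *Adamts2*, the genes that were called, and for *P4ha1* and *P4ha2*, the catalytic subunits with the lowest fold changes among the rest. The sequences are from RefSeq (GRCm38.p6), which held 8 of the 10 genes, and each is written 5′ to 3′ on the strand of its gene. Capitals mark ACGTG or its reverse complement, a form of the core of the hypoxia response element, and TTCNNGAA, an inverted pair of the heat shock factor repeat. The form GCGTG was not searched for and is not marked.
Serpinh1: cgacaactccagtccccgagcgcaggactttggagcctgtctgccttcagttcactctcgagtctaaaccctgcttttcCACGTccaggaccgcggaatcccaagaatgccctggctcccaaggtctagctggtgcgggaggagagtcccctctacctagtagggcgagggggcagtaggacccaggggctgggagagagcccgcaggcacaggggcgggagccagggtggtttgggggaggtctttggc
Adamts2: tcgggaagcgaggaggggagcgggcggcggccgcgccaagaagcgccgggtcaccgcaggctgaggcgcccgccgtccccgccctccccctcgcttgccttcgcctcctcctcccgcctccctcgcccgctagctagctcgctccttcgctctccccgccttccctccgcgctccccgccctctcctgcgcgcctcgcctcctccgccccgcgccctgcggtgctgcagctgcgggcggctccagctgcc
P4ha1: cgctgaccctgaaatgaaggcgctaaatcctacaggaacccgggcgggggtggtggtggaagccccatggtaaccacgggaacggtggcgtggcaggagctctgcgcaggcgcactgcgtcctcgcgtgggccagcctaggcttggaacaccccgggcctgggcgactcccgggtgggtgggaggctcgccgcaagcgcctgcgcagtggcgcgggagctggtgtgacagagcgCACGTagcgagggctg
P4ha2: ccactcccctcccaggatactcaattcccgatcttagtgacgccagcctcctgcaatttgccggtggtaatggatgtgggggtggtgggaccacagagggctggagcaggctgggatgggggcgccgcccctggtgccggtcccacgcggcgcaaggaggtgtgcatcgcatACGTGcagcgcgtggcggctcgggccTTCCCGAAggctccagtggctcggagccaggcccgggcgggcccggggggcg
These windows lie at chr7:99353240-99353489 on the minus strand for *Serpinh1*, and on the plus strand at chr11:50601835-50602084 for *Adamts2*, at chr10:59323046-59323295 for *P4ha1* and at chr11:54100674-54100923 for *P4ha2*, where the RefSeq start lies downstream of the GENCODE start of the same gene.

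Both strands were searched for ACGTG, GAANNTTC and TTCNNGAA, of which the latter pair read the same on either strand. ACGTG was found once in each of *Serpinh1*, *P4ha1*, *P4ha2*, *P4hb* and *Plod3*, with its first printed base 171, 16, 78, 56 and 54 bases before the start. The same letters were in 16.6% of the 32851 promoter windows of this length. TTCNNGAA was found in *P4ha2*, at 52 bases before the start, and in 7.17% of all windows, whereas GAANNTTC was found in none of the 8 and in 6.69% of all windows. No searched motif was in the windows of *Adamts2*, *Plod1* or *Pcolce*. The *Pcolce* window lies inside the GENCODE gene, since its RefSeq start, like that of *P4ha2*, is downstream of the GENCODE start. The RefSeq start of *Plod1* lies just upstream of the GENCODE one. The *Serpinh1* window thus held neither arrangement of the heat shock repeat, which says only that these letters are not in these 250 bases.

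*Serpinh1* (chromosome 7, 99345376 to 99353239, minus strand, GRCm38) had 19940.0, 29766, 21182, 27599 and 28370.2 normalized counts in young replicates 1 to 5. In old replicates 1 to 5 it had 18946, 14916, 17500.3, 19110.0 and 16011. Every old aorta lay below every young one, although the gap was narrow, from 19110.0 in old replicate 4 to 19940.0 in young replicate 1. Its mean went from 25371 ± 4481 down to 17297 ± 1829, a log2 fold change of -0.54 (SE 0.12, 95% interval -0.80 to -0.29, edgeR, adjusted p = 0.0102). *Serpinh1* was the only one of the 10 genes whose groups did not overlap in this direction, as seen in 4.55% of all genes tested. It kept its call in all 17 alternatives without the replicate number, with log2 fold changes between -0.62 and -0.48 and adjusted p-values between 0.00018 and 0.0305.

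**Figure D1:**
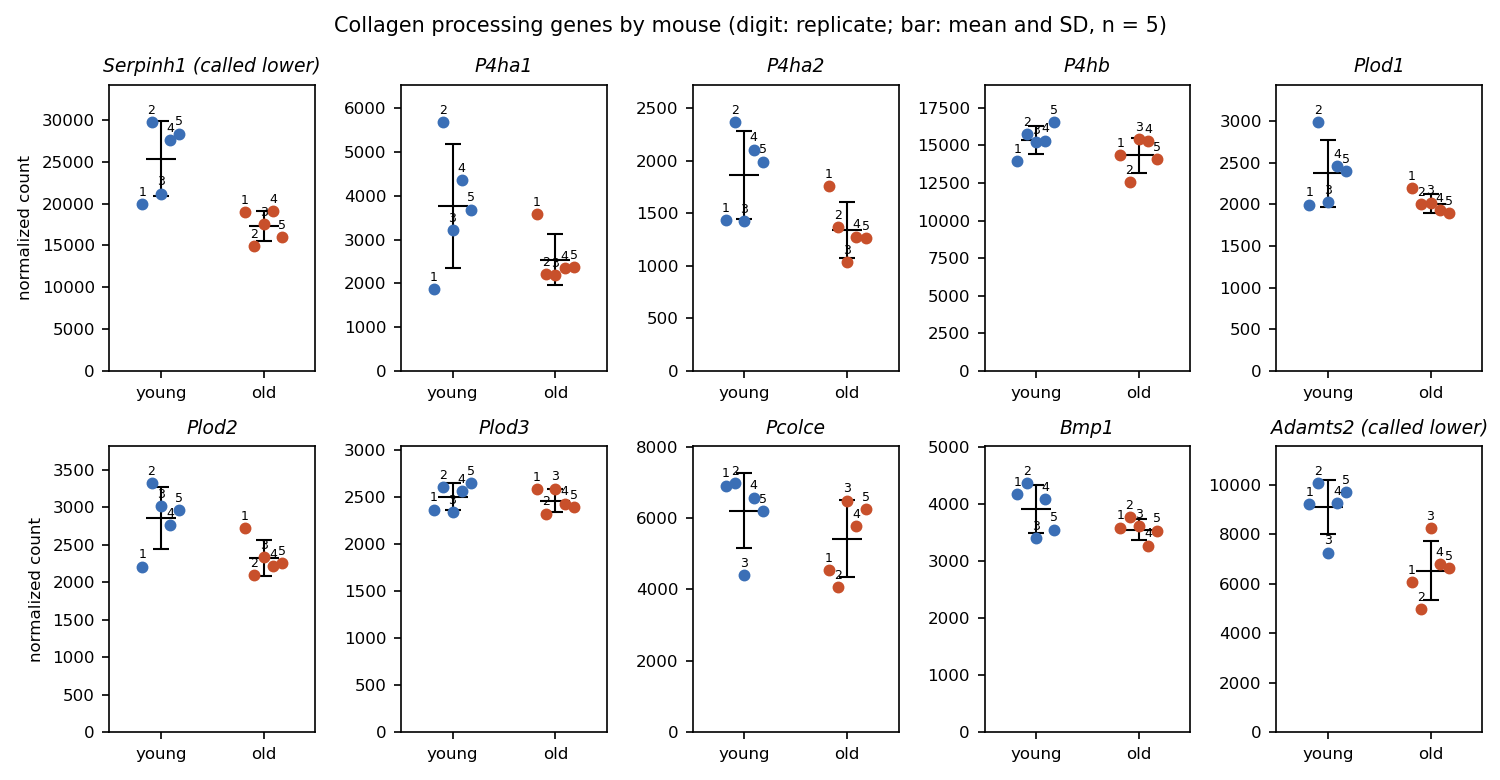
Normalized count (vertical axes, from 0) of each of the 10 collagen processing genes in each aorta, with young aortae in blue, old aortae in red, the replicate number beside each point, and the mean and SD (n = 5) as bars. *Serpinh1* is the only panel in which the groups are apart, and young replicate 2 is the highest young aorta in 8 of the 10 panels.

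The catalytic subunit *P4ha1* (chromosome 10, 59323296 to 59373304, plus strand) varied most of all members among young mice. It had 1863, 5687, 3213, 4362 and 3685 normalized counts in young replicates 1 to 5 and 3579.6, 2216, 2189, 2343 and 2372 in old replicates 1 to 5. The lowest of all 10 aortae was thus a young one, replicate 1, and the highest young aorta had 3.05 times its level, while old replicate 1 stood above the other old aortae. The means were 3762 ± 1413 in young and 2540.1 ± 586 in old aortae, and the log2 fold change of -0.56 (SE 0.27, interval -1.16 to 0.04) did not pass the test (edgeR, adjusted p = 0.217). Without young replicate 1, the lowest, it passed at -0.73 (edgeR, adjusted p = 0.0348), and without young replicate 2, the highest, it was -0.36 (adjusted p = 0.413). The *P4ha1* difference was thus about the size of that of *Serpinh1*, with the largest SE of the 10 genes.

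*P4ha2* (chromosome 11, 54100095 to 54131665, plus strand), which encodes the second catalytic subunit, had 1430.2, 2368, 1426, 2102 and 1989 normalized counts in young replicates 1 to 5. The old aortae had 1756, 1364, 1036, 1276 and 1264 in the same order of replicates. Old replicate 1 again exceeded the other old aortae and lay above young replicates 1 and 3, while the remaining 4 old aortae lay below all young ones. *P4ha2* did not pass in edgeR, with means of 1863 ± 420.2 and 1339 ± 262 and a log2 fold change of -0.47 (SE 0.17, interval -0.84 to -0.09, adjusted p = 0.105). It passed in DESeq2 (log2 fold change -0.48, adjusted p = 0.0321) and in edgeR without old replicate 1 (-0.59, adjusted p = 0.0425).

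The beta subunit *P4hb* (chromosome 11, 120560298 to 120573253, minus strand), a disulfide isomerase that also folds many other proteins, did not pass the test. Young replicates 1 to 5 had 13959.5, 15740.1, 15216, 15312 and 16572 normalized counts, and old replicates 1 to 5 had 14351, 12562, 15416, 15270.1 and 14092. The groups overlapped over most of their range, with old replicate 2 the lowest and young replicate 5 the highest aorta. The log2 fold change was -0.09 (SE 0.07, interval -0.24 to 0.06, edgeR, adjusted p = 0.450), and -0.052 without old replicate 2 (adjusted p = 0.668).

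No share of a catalytic subunit within its family passed the test between the ages. Per kilobase of exonic length, *P4ha1* took 73.6% ± 4.83 (SD, n = 5) of the summed level of *P4ha1*, *P4ha2* and *P4ha3* in the young group and 73.0% ± 1.83 in the old group (exact permutation, p = 0.802). *P4ha2* took 25.4% ± 4.72 and 25.5% ± 2.00 (exact permutation, p = 0.976). The difference of -0.65 percentage points for *P4ha1* moved between -2.67 and 0.45 when single mice were left out, and that of 0.15 for *P4ha2* between -0.84 and 2.11. *P4ha3* was the minor form, at 1.00% ± 0.436 of the young and 1.5% ± 0.199 of the old sum (exact permutation, p = 0.0714, adjusted p = 0.143 over 6 shares). Here and below, the exonic length of a gene counts every base in an exon of any of its annotated transcripts. Levels per kilobase and shares compared between genes depend on these lengths, which were 4114 bases for *P4ha1* and 6239 for *P4ha2*.

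Among the lysyl hydroxylases, *Plod2*, which modifies the telopeptides, had the lowest fold change. *Plod2* (chromosome 9, 92542223 to 92608428, plus strand) had 2207, 3319, 3017, 2765 and 2959 normalized counts in young replicates 1 to 5 and 2721, 2099, 2335, 2219 and 2252 in old replicates 1 to 5. Young replicate 1 lay among the old aortae, and old replicate 1 came near the young ones. The means were 2853 ± 412 and 2325 ± 237, with a log2 fold change of -0.29 (SE 0.10, interval -0.51 to -0.07) that did not pass (edgeR, adjusted p = 0.0850). It passed in edgeR without young replicate 1 (-0.37, adjusted p = 0.00786) and without old replicate 1 (-0.35, adjusted p = 0.0395). The gene model *Gm38391* on the opposite strand overlaps 6.42% of its exonic sequence, and since the strand setting of the counting is not given in the sources used here, reads from such stretches are uncertain.

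*Plod1* (chromosome 4, 147909753 to 147936767, minus strand), the hydroxylase of lysines within the helix, had 1997, 2989.6, 2028, 2458 and 2402 normalized counts in young replicates 1 to 5. Old replicates 1 to 5 had 2195, 2002, 2021, 1927 and 1892. The old values were close together, with a coefficient of variation of 5.84% against 17% in young aortae, and young replicates 1 and 3 lay within them. The log2 fold change of -0.23 (SE 0.10, interval -0.45 to -0.02) did not pass (edgeR, adjusted p = 0.147), and it was -0.14 without young replicate 2 (adjusted p = 0.297).

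*Plod3* (chromosome 5, 136987019 to 136996648, plus strand), which besides hydroxylation transfers sugars to hydroxylysine, had the smallest coefficient of variation of the 10 genes within either age (5.65% in young, 4.80% in old aortae). It had 2368, 2608, 2340.0, 2564 and 2647 normalized counts in young and 2584, 2323, 2589, 2431 and 2394 in old replicates 1 to 5. The groups overlapped almost entirely, and the log2 fold change of -0.02 lay within an interval of -0.14 to 0.11 (SE 0.06, edgeR, adjusted p = 0.894). Other annotated genes, *Znhit1* on the opposite strand and *Mir702*, overlap 11.9% of its exonic sequence. As a share of the summed lysyl hydroxylase level per kilobase, *Plod3* stood at 38.8% ± 2.69 when young and 42.9% ± 1.21 when old (exact permutation, p = 0.0159), which did not pass over the 6 shares (adjusted p = 0.0952). The share of *Plod2* was 36.8% ± 2.7 and 33.8% ± 1.36 (exact permutation, p = 0.0635), and that of *Plod1* was 24.4% ± 1.93 and 23.3% ± 0.771 (exact permutation, p = 0.302).

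**Figure D2:**
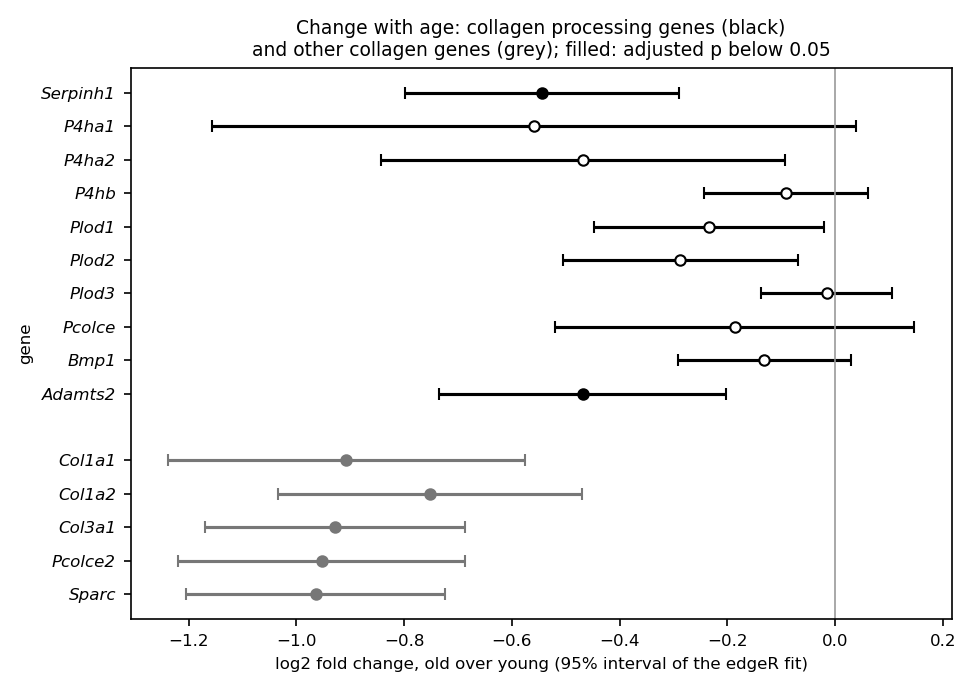
Log2 fold change of old over young aortae (horizontal axis) with the 95% interval of the edgeR fit. The 10 collagen processing genes are black, and *Col1a1*, *Col1a2*, *Col3a1*, *Sparc* and *Pcolce2* are grey, with filled points for an adjusted p below 0.05. *Serpinh1* and *Adamts2* are the filled black points, at -0.54 and -0.47, and the grey points lie between -0.96 and -0.75. Not shown are the type V chains *Col5a1* (-0.33), *Col5a2* (-0.54) and *Col5a3* (-0.48). The further genes of collagen biosynthesis, of which only *Sparc* and *Pcolce2* are shown, had a median of -0.14.

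*Adamts2* (chromosome 11, 50602084 to 50807573, plus strand), the amino-terminal procollagen proteinase, had 9225, 10063, 7258, 9273 and 9701 normalized counts in young replicates 1 to 5. Old replicates 1 to 5 had 6067, 4972, 8245, 6791 and 6626. Old replicate 3 lay above young replicate 3, and apart from this pair every old aorta was lower than every young one. Its mean went from 9104 ± 1087 down to 6540.3 ± 1189.6, a log2 fold change of -0.47 (SE 0.12, 95% interval -0.73 to -0.20, edgeR, adjusted p = 0.0274). This call is near the threshold, since it was lost in edgeR without young replicate 2 (adjusted p = 0.0644), 4 (0.0627) or 5 (0.0597), without old replicate 1 (0.0585) or 5 (0.0572), and without the filter on low counts (0.0532), at log2 fold changes between -0.47 and -0.43. Its relatives *Adamts3* and *Adamts14*, which cut the same propeptide, had 50.5 ± 4.42 and 273 ± 13.5 normalized counts in young aortae and were not called (edgeR, adjusted p = 0.575 and 0.840).

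*Bmp1* (chromosome 14, 70474558 to 70520234, minus strand), the carboxy-terminal procollagen proteinase, did not pass the test. Its normalized counts were 4172, 4362, 3401, 4079.9 and 3550.2 in young and 3585, 3767, 3607, 3268 and 3536 in old replicates 1 to 5. All old values fell within or just under the young range, and the log2 fold change was -0.13 (SE 0.07, interval -0.29 to 0.03, edgeR, adjusted p = 0.284).

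*Pcolce* (chromosome 5, 137605103 to 137613784, minus strand), the enhancer of that proteinase, had 6903, 6970.4, 4404, 6570.4 and 6184 normalized counts in young and 4535, 4058, 6489.6, 5778 and 6257 in old replicates 1 to 5. Young replicate 3 and old replicates 1 and 2 stood low, with the other 7 aortae between 5778 and 6970.4. Other annotated genes, *Fbxo24* on the same strand and *Gm36266* on the opposite strand, overlap 2.93% of the exonic sequence of *Pcolce*. The log2 fold change of -0.19 had an interval of -0.52 to 0.15 (SE 0.15, edgeR, adjusted p = 0.483), and it moved to -0.10 without old replicate 2 (adjusted p = 0.711) and to -0.29 without young replicate 3 (adjusted p = 0.188). The second enhancer gene, *Pcolce2*, fell from 4438 ± 396 to 2280.2 ± 451 normalized counts (log2 fold change -0.95, SE 0.12, edgeR, adjusted p = 0.000519). All old aortae lay at 2786 or below for *Pcolce2* and all young ones at 4075 or above. Whether the changes of *Pcolce* and *Pcolce2* differ was not tested.

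Per kilobase of exonic length, the 10 genes kept the same order of mean level at both ages. *Serpinh1* was at the top with 10385 ± 1834 normalized counts per kilobase in young and 7080.1 ± 748 in old aortae, followed by *P4hb* with 5369 ± 331 and 5012 ± 400.3. *Pcolce* followed with means of 1623 and 1419, *Adamts2* with 975 and 701 and *P4ha1* with 914 and 617. *Plod3*, *Plod2*, *Bmp1*, *Plod1* and *P4ha2* lay between 554 and 299 in young and between 545 and 215 in old aortae, and *P4ha3* had 11.3 and 12.8. The ranges over mice of *Serpinh1*, *P4hb*, *Pcolce* and *Adamts2* were apart from one another at either age. From *Adamts2* down, neighbours in the order overlapped in young aortae, and in old aortae all did but *Plod3* with *Plod2* and *Bmp1* with *Plod1*. On this scale the mean of *Serpinh1* lay above those of *Col1a1*, *Col1a2* and *Col3a1*. The means of these chains per kilobase were 7103 to 8931 in young and 4093 to 4734 in old aortae. In young aortae the lowest *Serpinh1* mouse, at 8162, was below the highest *Col1a1* mouse, at 10071. In old aortae the lowest *Serpinh1* mouse, at 6105, was above the highest *Col1a1* mouse, at 5991. This order rests on the exonic lengths used, 2443 bases for *Serpinh1* and 6563, 12426 and 9816 for the chains. Before division by length, the young mean of *Serpinh1* (25371) lay below those of the chains (58611, 88264 and 76905).

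**Figure D3:**
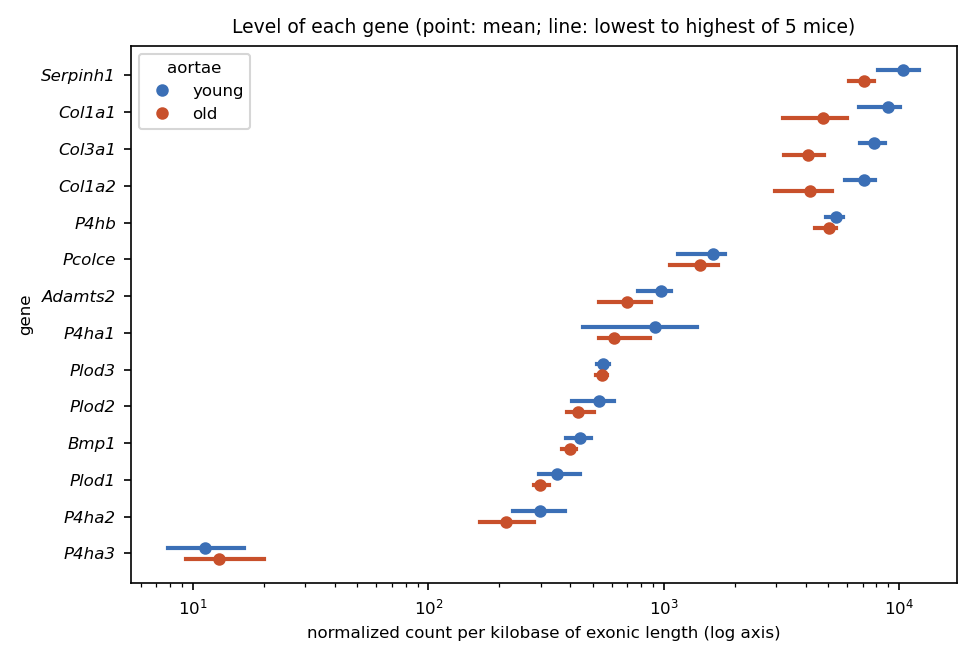
Normalized count per kilobase of exonic length (horizontal log axis) of the collagen processing genes, the 3 main collagen chains and *P4ha3*, with the mean as a point and the lowest to highest of 5 mice as a line, young in blue and old in red. The order of the 10 genes is the same at both ages, from *Serpinh1* (means 10385 and 7080.1) to *P4ha2* (299 and 215).

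The mRNAs of the main collagen chains, the clients of these enzymes, fell. *Col1a1*, which encodes the alpha-1 chain of type I collagen, fell from 58611 ± 8337 to 31070.2 ± 6754 normalized counts (log2 fold change -0.91, SE 0.15, edgeR, adjusted p = 0.00277). *Col1a2* fell by 0.75 on the log2 scale (SE 0.13, adjusted p = 0.00282 in edgeR) and *Col3a1*, the type III chain, by 0.93 (SE 0.11, adjusted p = 0.000241). The groups did not overlap for any of these 3 chains, and of the 6 chains of types I, III and V, 5 were called lower and *Col5a3* was not (log2 fold change -0.48, edgeR, adjusted p = 0.0948).

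To set the processing genes against these chains, the fit was repeated with the geometric mean of the *Col1a1*, *Col1a2* and *Col3a1* counts as the scale of each library. On that scale all 10 processing genes were called higher in aged aortae, and so were 91.1% of all genes tested, with a median log2 difference of 0.89 over all genes, so that the count is near the background. The difference was smallest for *Serpinh1* (log2 0.35, SE 0.15, edgeR, adjusted p = 0.0237), *P4ha1* (0.35, SE 0.16, adjusted p = 0.0348) and *Adamts2* (0.40, SE 0.16, adjusted p = 0.0125) and largest for *Plod3* (0.87, SE 0.17, adjusted p = 6.2e-07). All 10 values thus lay below the median of all genes. No processing gene rose in the main fit, so that these p-values carry the fall of the chains. *Serpinh1* lost this call without young replicate 1 (adjusted p = 0.0922) and without old replicate 1 (0.0506), and *P4ha1* lost it when any 1 of 6 mice was left out, young replicates 1, 3 and 5 and old replicates 1, 2 and 5, with adjusted p-values up to 0.305 in edgeR. With the summed counts of the type I, III and V chains as the scale, 9 of the 10 were called and *P4ha1* was not (log2 0.28, edgeR, adjusted p = 0.239), and with *Col1a1* alone all 10 were called. In that sum the type V chains had the lowest counts. On the scale of the 3 chains, *Col5a1*, *Col5a2* and *Col5a3* were themselves called higher (log2 0.56, 0.34 and 0.43), so that the result depends on the chains chosen. Relative to the geometric mean of the 3 chains per kilobase, *Serpinh1* stood at 106%, 139%, 134%, 133% and 142% in young and at 173%, 195%, 136%, 165% and 163% in old replicates 1 to 5, where old replicate 3 lay among the young aortae. The exonic lengths used set the height of such percentages, but not their relative change with age. *Adamts2* stood at 12.3% ± 0.485 in young and 16.3% ± 1.30 in old aortae, with every old aorta above every young one. The same held for *P4hb*, *Plod1*, *Plod3*, *Pcolce* and *Bmp1*, and not for *Serpinh1*, *P4ha1*, *P4ha2* and *Plod2*. How many of all genes were apart on this scale was not computed, so that no trait of *Adamts2* or of the other genes can be read from it. The 3 chains were themselves lower in every old than in every young aorta, and 91.1% of all genes were called higher against them.

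Of 21 further genes of collagen biosynthesis that could be tested, 3 were called lower, 0 higher, and the median log2 fold change was -0.14. They were *Sparc*, an extracellular collagen-binding protein (log2 fold change -0.96, SE 0.11, edgeR, adjusted p = 0.00018), *Pcolce2*, given above, and *Creb3l1*, an ER-bound transcription factor of collagen genes (-0.33, SE 0.10, adjusted p = 0.0455). *Tll2* had a mean of 3.03 normalized counts when young and 0.988 when old and was not tested. None of 13 general folding genes of the ER, such as *Hspa5*, *Calr* and *Hsp90b1*, was called in edgeR, DESeq2 or limma-voom or had an unadjusted p below 0.05 in edgeR, and their median log2 fold change was -0.031. Of 12 heat shock genes, chaperones mostly of the cytosol, 8 were called lower and 0 higher, with a median of -0.82. The smallest p-values were those of *Hspa1a* (-2.95, edgeR, adjusted p = 0.0134), *Hspa1b* (-2.99, 0.0145) and *Bag3* (-0.89, 0.0279), of which the first pair are near-identical copies whose counts are uncertain one from the other.

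Mice of 1 age differed from each other across many of the 10 genes at once. Young replicate 2 was the highest of the 5 young aortae in 8 genes, and young replicates 1 and 3 were each the lowest in 5. Among old aortae, replicate 2 was the lowest in 6 genes, and replicates 1 and 3 were each the highest in 4. After the mean of each age was removed, *Serpinh1* moved with the mean log2 level of *Col1a1*, *Col1a2* and *Col3a1* over the 10 mice (Pearson r = 0.69, permutation p = 0.00998, adjusted over 2 relations 0.0200; Spearman rho = 0.66, permutation p = 0.0284, adjusted 0.0568). Without old replicate 2 and young replicate 3, the mice farthest from the median collagen level, r was 0.53 (n = 8, permutation p = 0.100), and the relation no longer passed without these 2 mice. It also missed the threshold without young replicate 2 (r = 0.67, permutation, adjusted p = 0.0587), old replicate 2 (0.67, 0.106) or old replicate 5 (0.69, 0.0531). Old replicate 2 also had the highest share of mitochondrial counts of the 10 libraries. By r with *Serpinh1*, *Col3a1* ranked 626 (r = 0.75), *Col1a2* 1055 (0.69) and *Col1a1* 1605 (0.61) among all genes tested. Many genes other than these chains thus followed *Serpinh1* as closely.

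With the mean log2 level of the 12 heat shock genes, the relation of *Serpinh1* did not pass (r = 0.60, permutation p = 0.124, rho = 0.53, permutation p = 0.201). Without young replicates 1 and 2, which were the farthest from the median heat shock level, r was 0.20 (n = 8, permutation p = 0.625), and without young replicate 5 it was 0.75 (permutation, adjusted p = 0.0420). The 5 genes whose levels followed *Serpinh1* most closely over the 10 mice, with age means removed, were *Gbf1* (r = 0.97), *Lamc1* (0.97), *Copa* (0.96), *Nans* (0.96) and *Eif4g1* (0.95), out of all genes tested. Of these, *Lamc1*, a laminin chain, was called lower in aged aortae (log2 fold change -0.31, edgeR, adjusted p = 0.0241). Among the other 9 processing genes, r with *Serpinh1* ranged from 0.87 for *Plod3* to 0.038 for *Bmp1*. All genes here share the same 10 libraries, so that these values are a description.

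**Figure D4:**
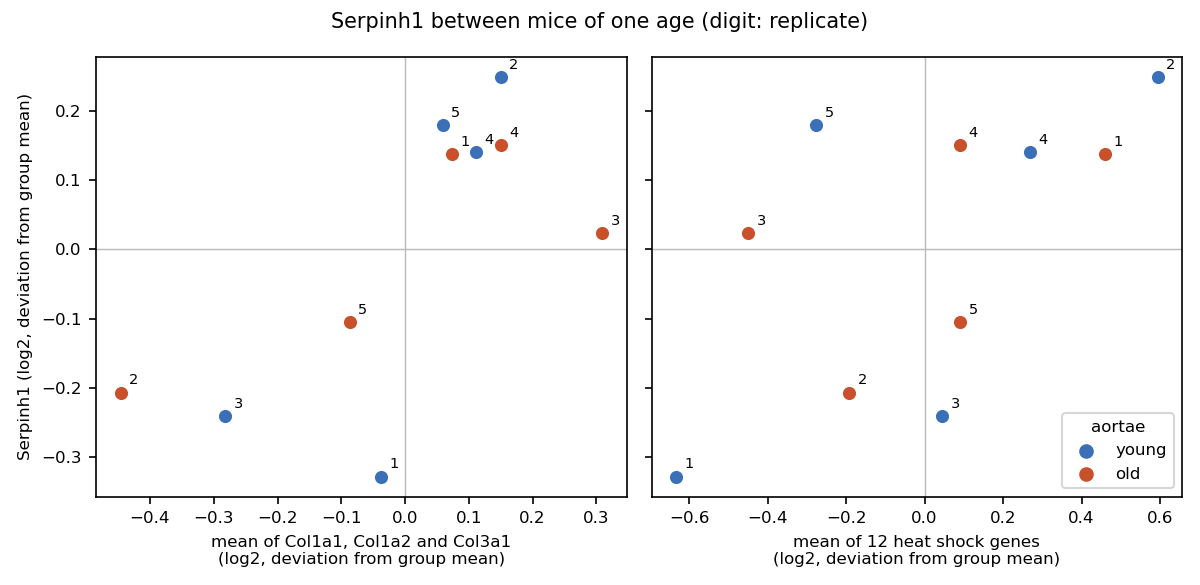
Log2 level of *Serpinh1* in each mouse as its deviation from the mean of its age (vertical axis) against the mean deviation of *Col1a1*, *Col1a2* and *Col3a1* (left) and of 12 heat shock genes (right), with replicate numbers beside the points, young in blue and old in red. The left panel has r = 0.69 and the right panel r = 0.60 over 10 mice, and old replicate 2 and young replicate 3 are at the low end on the left.

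Total counts on genes were between 19640401 and 22886153 per library and did not differ between the ages beyond the spread of mice (exact permutation, p = 0.754). Mitochondrial genes took 11% of the counts in old replicate 2 and 4.50% to 6.51% in the others. Without old replicate 2, *Serpinh1* (log2 fold change -0.50, adjusted p = 0.0216) and *Adamts2* (-0.39, adjusted p = 0.0357) were again the members called in edgeR. Markers of smooth muscle were abundant in every library (737470 to 945657 summed normalized counts), and 1 of 7 was called, *Smtn*, which rose (log2 fold change 0.29, edgeR, adjusted p = 0.0217). Of 8 fibroblast markers, *Lum* rose (0.58, adjusted p = 0.00296) and *Pi16* fell by 0.58 (adjusted p = 0.0147), with sums of 97265 to 106846 in young and 90784 to 117340 in old aortae.

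Some endothelial, macrophage and cartilage markers were called in edgeR, and no adipocyte marker was. Of 6 endothelial markers, *Tek* was called lower (log2 fold change -0.87, edgeR, adjusted p = 0.0381), and their sum was 19345 to 33413 in young and 9725 to 22319 normalized counts in old aortae, while DESeq2 and limma-voom each called 4 lower. None of 6 adipocyte markers was called in edgeR, where 4 had an unadjusted p below 0.05, and DESeq2 called 2 lower and limma-voom 1, with sums of 10124 to 35107 and 5944 to 14552. Macrophage markers were called higher in 3 of 6, *Cd68*, *Adgre1* and *C1qa* (6 of 6 in DESeq2, sums 6636 to 8936 and 8804 to 18141), and cartilage markers in 3 of 4 tested, *Hapln1*, *Acan* and *Comp* (sums 1975 to 2876 and 3204 to 4494), while the cartilage genes *Col9a1* and *Matn1* were near 0. *Col2a1*, the remaining cartilage gene tested, was not called (log2 fold change 2.19, edgeR, adjusted p = 0.108). Young replicate 1 had the highest level of each adipocyte marker. The part of these cell types in the levels of *Serpinh1* and *Adamts2* was not tested.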

How the data were processed

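Libraries of poly(A)-selected mRNA were prepared with a stranded kit from 5 young and 5 old mouse aortae. Reads were trimmed, and reads under 35 bases removed, with fastp 0.20.0, aligned to GRCm38 with STAR 2.7.0f and counted per gene with featureCounts (Subread 1.6.4), per the labels and the study's methods. The deposited table holds these raw counts as the authors made them, without normalization. The strand setting and the treatment of multiply aligned reads are not given in the sources used here, which limits genes that overlap others or share sequence.

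Genes were filtered with filterByExpr, which kept 14614 of 28011 genes with a count, and compared with edgeR 4.0.16 (TMM scaling, robust quasi-likelihood F test, no covariates, R 4.3.3). P-values were adjusted over all genes tested by the Benjamini-Hochberg method. The same model with collagen counts as offset gave the values relative to collagen mRNA. Family shares and total counts were tested by exact permutation of mice (two-sided), and relations with 100000 permutations within age. Positions and exonic lengths are from GENCODE M21 (the authors used M22), in which 54402 of 55453 symbols matched 1 gene. The exonic length of a gene is the union of the exons of all its annotated transcripts, which can exceed the length of its main mRNA. The scripts were tested on simulated data. No 2 libraries of an age matched within counting error (chi-square per degree of freedom 8.06 to 58.8 in 20 pairs), and each SE holds the spread of mice.

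The members, lists and tests were chosen with earlier results of these data known. Named genes were all members, the main collagen chains, up to 3 called genes per list and direction by smallest p, and the 5 genes most like *Serpinh1*, and others were chosen after their values were seen. Alternatives were DESeq2 1.42.0, limma-voom (limma 3.58.1), other scalings, filters and collagen references, the replicate number as a block, and omission of each mouse.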

Additional observations from a re-analysis of the deposited data

Results flagged for a closer look

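In 32 groups of 5 values, 2 held an aorta that stood far from the other 4 by Dixon's criterion (gap over range above 0.71), and chance gives about 1 in 20 such groups. *P4ha1* had 3579.6 normalized counts in old replicate 1, against 2189 to 2372 in the other old aortae. The share of *Plod1* in the summed lysyl hydroxylase level was 24.7% in old replicate 2, against 22.8% to 23.2% in the others.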

How the results depend on the processing

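*Serpinh1* kept its call under every alternative run, with log2 fold changes from -0.62 to -0.48, and its adjusted p was 0.0390 with the replicate block. *Adamts2* missed the threshold without the low-count filter (-0.47, adjusted p = 0.0532) and with the replicate block (-0.48, 0.0908), and ranged from -0.57 to -0.39 when single mice were left out (DESeq2 and limma-voom called it). The replicate number did not pair the mice (correlations of deviations from -0.30 to 0.13, and 2 of 5 young aortae closest to the old one of their number). Of the 10 genes, 1 was called without the filter, 1 with the block and 1 to 4 without single mice, 4 of them without young replicate 1. Over all genes, 1676 were called, 1132 to 2367 without single mice, 2297 by DESeq2 and 1261 with the block. *Plod3* turned to 0.013 with upper-quartile factors, 0.010 with library size alone and ranged from -0.039 to 0.00011 without single mice. The share of *P4ha1* moved from -2.67 to 0.45 and that of *P4ha2* from -0.84 to 2.11 percentage points. Relative to collagen mRNA, 7 of the 10 genes were called with the block and 7 to 10 without single mice. The r of *Serpinh1* with collagen ranged from 0.61 to 0.82 and with heat shock genes from 0.37 to 0.75 without single mice. The causes were not tested. In all, 408 values kept direction and side of the threshold, 23 lost and 6 gained a call, 9 changed sign and 7 counts moved.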

Other observations

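The enzymes of prolyl 3-hydroxylation and of sugar addition to collagen, named here after their values were seen, did not pass the test in edgeR. *P3h3*, a prolyl 3-hydroxylase, went from 3881 ± 243 to 3384 ± 324 normalized counts with age (SD, n = 5, log2 fold change -0.19, edgeR, adjusted p = 0.109). Its relatives *P3h1* and *P3h2* had log2 fold changes of -0.16 (edgeR, adjusted p = 0.164) and 0.25 (adjusted p = 0.145). *Crtap*, *Ppib* and *P3h4*, partners of these hydroxylases, had log2 fold changes of 0.020, -0.036 and -0.035. *Colgalt1*, which adds galactose to hydroxylysine, had 4010.3 ± 179 and 3554 ± 279 (-0.17, adjusted p = 0.109).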
